A study of Mus musculus with 9 samples.

Results

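Deep-layer projection neurons are the early-born excitatory cells of the cerebral cortex that send axons to the thalamus, brainstem and spinal cord. The levels of 10 transcription regulators of these cells were compared between conditional Dicer knockout and control mouse embryos. The regulators are Tbr1, Bcl11b, Fezf2, Sox5, Zfpm2, Tle4, Nfia, Nfib, Neurod2 and Neurod6. They were taken from the deposited table by 10 listed Ensembl identifiers, and all 10 were present among its 12188 genes. No filter on low values was applied, so every one of them was tested.

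The knockouts were 5 embryos (replicates 5, 7, 9, 10 and 11), all labelled male and described as depleted of microRNAs. The controls were 4 embryos, of which controls 1 and 2 were labelled female and controls 3 and 4 male. Dorsal telencephalon, the part of the forebrain wall that forms the cortex, was taken at embryonic day E13.5 from embryos of strain C57Bl6/J, and total RNA of each embryo was hybridised to 1 Affymetrix array. The knockout is conditional, but the Cre line that removes Dicer, and with it the cells that are affected, is not given in the sources used here. Titles of the controls begin with HTZ, which may mean heterozygous, so the controls may carry an altered Dicer allele and are not taken as wild type. Some embryos were littermates, and which ones is not given in those sources.

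Dicer is the enzyme that releases mature microRNAs from their hairpin precursors, and microRNAs lower the stability and translation of target messenger RNAs. In the developing cortex, deep-layer neurons are produced early, and their identity is set by a small network of regulators that act on each other. Tbr1 marks and specifies the corticothalamic neurons of the deepest layer and represses Fezf2 there, while Fezf2 and Bcl11b (also called Ctip2) specify the neurons above it that project to brainstem and spinal cord. Sox5, Zfpm2 (Fog2) and Tle4 shape the choice between these fates, and Nfia, Nfib, Neurod2 and Neurod6 act more broadly in cortical neurons or their progenitors.

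For 8 of the 10 genes RefSeq promoter windows were at hand, each from 250 bases before to 50 bases after a transcription start (build GRCm38.p6). Nfib and Zfpm2 had none. The windows of 4 genes are shown because the results turn on them: Tle4 is the gene that rose, and Sox5, Neurod2 and Neurod6 had the largest falls below the mean of controls 1 to 3. Of 2 Tle4 windows the upstream one is printed. Capitals mark matches to the E-box CANNTG, the motif bound by basic helix-loop-helix factors such as the NEUROD proteins, which reads the same on both strands.
Tle4, chr19:14598134-14598433, minus strand: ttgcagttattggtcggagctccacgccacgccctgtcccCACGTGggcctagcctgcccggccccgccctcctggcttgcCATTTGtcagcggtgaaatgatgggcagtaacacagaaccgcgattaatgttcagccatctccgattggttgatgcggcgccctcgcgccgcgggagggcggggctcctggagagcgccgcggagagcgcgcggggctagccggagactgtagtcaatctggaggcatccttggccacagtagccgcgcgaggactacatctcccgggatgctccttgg
Sox5, chr6:143947057-143947356, minus strand: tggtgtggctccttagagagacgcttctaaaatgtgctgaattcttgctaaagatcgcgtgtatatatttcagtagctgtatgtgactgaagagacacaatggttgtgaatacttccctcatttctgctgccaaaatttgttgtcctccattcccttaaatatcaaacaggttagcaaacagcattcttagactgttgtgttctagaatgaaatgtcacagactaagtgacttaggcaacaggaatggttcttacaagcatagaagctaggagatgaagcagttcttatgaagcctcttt
Neurod2, chr11:98329596-98329895, minus strand: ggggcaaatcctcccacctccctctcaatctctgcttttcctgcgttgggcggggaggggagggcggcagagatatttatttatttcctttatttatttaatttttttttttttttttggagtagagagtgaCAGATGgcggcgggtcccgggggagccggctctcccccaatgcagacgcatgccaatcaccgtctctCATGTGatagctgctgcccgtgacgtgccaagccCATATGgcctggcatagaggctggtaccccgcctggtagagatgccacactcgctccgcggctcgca
Neurod6, chr6:55681214-55681513, minus strand: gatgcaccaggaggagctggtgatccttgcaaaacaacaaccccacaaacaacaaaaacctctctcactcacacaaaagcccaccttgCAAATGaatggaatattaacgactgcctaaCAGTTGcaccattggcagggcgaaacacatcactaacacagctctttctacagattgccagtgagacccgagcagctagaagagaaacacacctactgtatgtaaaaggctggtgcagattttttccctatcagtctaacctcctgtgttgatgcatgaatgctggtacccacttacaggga

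The upstream Tle4 window held 2 E-boxes, CACGTG and CATTTG, and the second Tle4 window (chr19:14597164-14597463) held 0. That of Neurod2 held 3, among them CAGATG, a form bound by NEUROD factors, and that of Neurod6 held 2. In the Sox5 window no E-box was found, which says only that these letters are not in this stretch. Of the 9 windows of the 8 genes (Tle4 has a second start), 5 held an E-box, against 72.3% of the 32851 windows of all genes. CAGATG, which is itself an E-box, was found in either orientation in 2 of the 9, against 17.2% of all windows. The half-site TTGGC of nuclear factor I, the family of Nfia and Nfib, occurred on either strand in 7 of the 9, against 46.7% of all windows. ACAAT, the core letters bound by SOX factors, occurred in 4 of the 9, against 31.0%, and the T-box half-site TCACACC in 0 of the 9, against 3.98%. The upstream Tle4 window was 65.0% G and C with 28 CpG dinucleotides and the second was 73.0% G and C with 44, whereas those of Neurod6 and Sox5 were 46.3% and 39.7% G and C with 3 CpG each. These matches describe the sequence and were not tied to binding.

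The 10 regulators differed in direction between knockout and control embryos. Tle4 rose 2.06-fold, Sox5 and Zfpm2 fell 1.68-fold and 1.21-fold, and the other 7 did not pass the test. Against all controls, the Tle4 call held without each embryo in turn. That of Sox5 was lost without several of them, and that of Zfpm2 without any single embryo other than control 4. Neither fall was called against the controls labelled male. A gene was called where its Benjamini-Hochberg adjusted p over all 12188 genes was under 0.05 in a limma fit of the 5 knockout against the 4 control arrays. The 3 called genes of 10 stand against 24.6% of all genes in that comparison (11% higher and 13.6% lower). The median change of the 10 genes was -0.18 log2 units, beside -0.02 over all genes, with 4 genes higher and 6 lower in the knockout. The median size of their changes was 0.39 log2 units, beside 0.16 over all genes. Their standard errors were also larger, with a median of 0.171 log2 units against 0.0938. Values are log2 array signals, so levels of different genes are not compared. In bulk tissue, fewer cells of a type and less RNA per cell cannot be told apart.

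**Figure D1:**
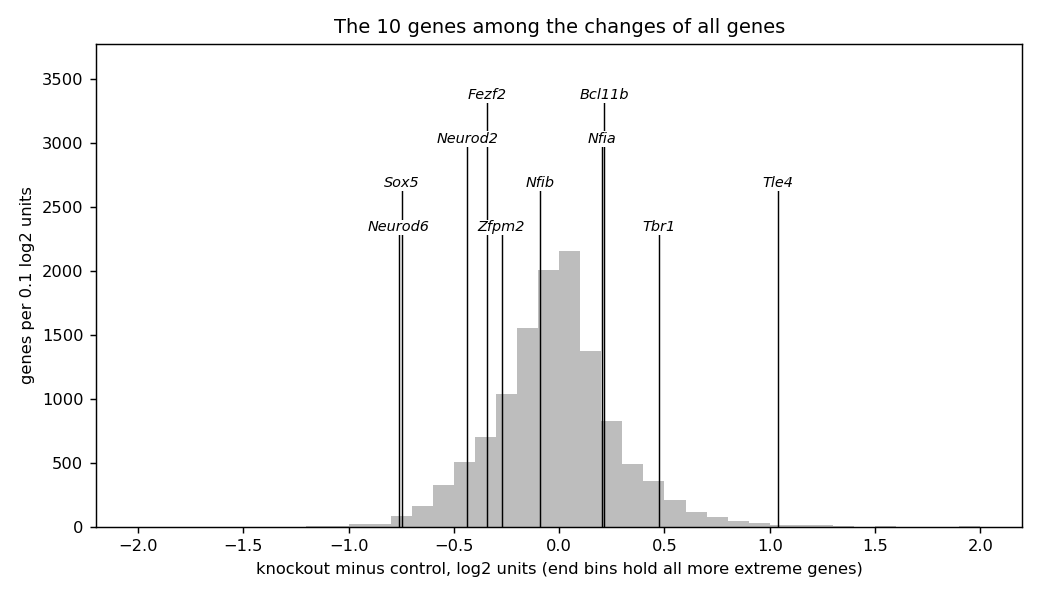
Histogram of the change (knockout minus control, log2 units, horizontal axis) of all 12188 genes, counted per 0.1 log2 units (vertical axis), with a line at the change of each of the 10 genes. Tle4, at 1.04, stands in the upper tail, Neurod6 and Sox5, at -0.76 and -0.75, in the lower tail, and the others lie nearer the centre.

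Control 4 stood apart from the other controls and bears on most of the values that follow. Over all genes its root mean square distance from the mean of the other 3 controls was 0.397 log2 units, against 0.177 to 0.216 for controls 1 to 3, each measured against its 3 fellow controls. At the 10 genes this distance was 0.771 for control 4. It was the lowest control at 8 of the 10 genes, whereas it was the lowest control at 35.6% of all genes. The exceptions were Tle4, where it lay among the other controls, and Fezf2, where it was the highest. Values are therefore given for all 9 embryos, and each change also without control 4. Control 4 was singled out from these same values, and the p-values without it do not allow for that choice. The planned marker lists for other cell types could not be paired with identifiers, so the part of tissue composition or stage in this embryo was not tested. For the same reason neither Dicer itself nor the tissue's other defining markers are reported.

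**Figure D2:**
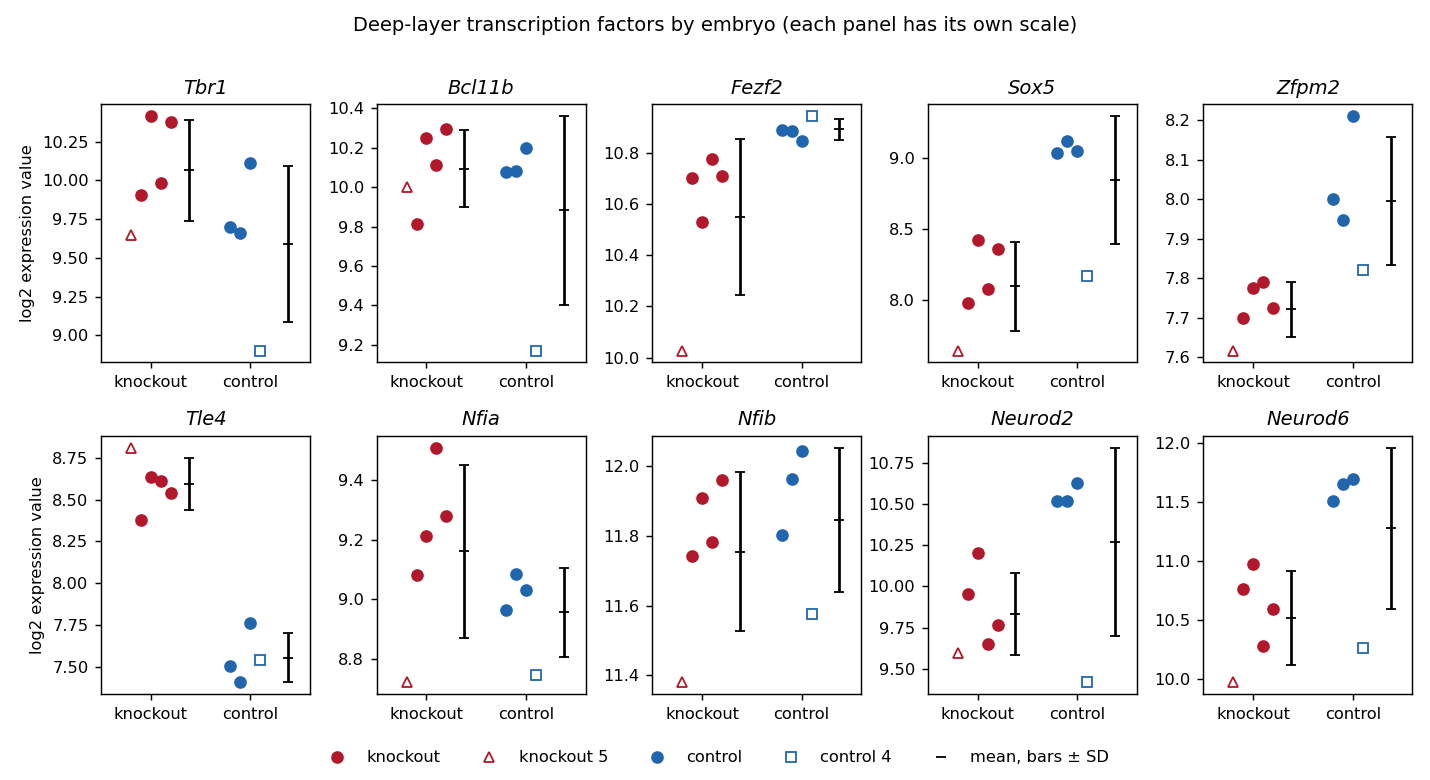
Log2 expression values (vertical axis, a separate scale in each panel) of the 10 genes in 5 knockout and 4 control embryos. Points are embryos, with knockout 5 as an open triangle and control 4 as an open square, and the bars show the mean ± SD of each group. Knockouts lie wholly above the controls at Tle4 and wholly below them at Fezf2 and Zfpm2, and control 4 lies far below the other controls at Tbr1, Bcl11b, Sox5, Neurod2 and Neurod6.

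Tbr1 (ENSMUSG00000035033_at), the T-box factor of corticothalamic and earlier preplate neurons, had log2 values of 9.65, 9.91, 10.41, 9.98 and 10.37 in knockouts 5, 7, 9, 10 and 11, against 9.70, 9.66, 10.11 and 8.90 in controls 1 to 4. The groups overlapped, with knockouts 9 and 11 above every control and control 4 below every other embryo. The difference was 0.47 log2 units (SE 0.23, 95% interval -0.05 to 0.99), with a limma adjusted p of 0.174. Without control 4 it was 0.24 (SE 0.18), with a limma adjusted p of 0.366. No change of Tbr1 was called in either fit. With array weights the difference was again 0.47 (SE 0.15) and was called, with a limma adjusted p of 0.031. Against control 3 alone as the control male it was -0.045, and against control 4 alone it was 1.16.

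Bcl11b (ENSMUSG00000048251_at), a zinc-finger factor required for the axons of subcerebral neurons, had values of 10.003, 9.81, 10.25, 10.11 and 10.30 in knockouts 5, 7, 9, 10 and 11, against 10.08, 10.08, 10.20 and 9.17 in controls 1 to 4. Controls 1 to 3 lay within the range of the knockouts, and control 4 lay 0.95 log2 units under the mean of the other controls. The difference of 0.21 (SE 0.20) had a limma adjusted p of 0.486. Without control 4 its sign turned, to -0.025 (SE 0.11, 95% interval -0.27 to 0.22, limma adjusted p = 0.901). Against control 3 alone as the control male it was -0.11, and against control 4 alone it was 0.92.

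Fezf2 (ENSMUSG00000021743_at), the zinc-finger factor at the head of the subcerebral programme, had values of 10.03, 10.70, 10.53, 10.78 and 10.71 in knockouts 5, 7, 9, 10 and 11, against 10.89, 10.89, 10.85 and 10.94 in controls 1 to 4. Every knockout lay under every control, and the 4 controls, control 4 included, lay close together, with an SD of 0.04. Knockout 5 was 0.65 log2 units under the mean of the other knockouts. The difference of -0.34 (SE 0.14, 95% interval -0.65 to -0.04) had an unadjusted limma p of 0.0323 and did not pass the adjustment over all genes, with a limma adjusted p of 0.1. Without knockout 5 it was -0.21 (limma adjusted p = 0.0512), and without control 4 it was -0.33 (limma adjusted p = 0.147).

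Sox5 (ENSMUSG00000041540_at), an HMG-box factor that times the production of the successive corticofugal neuron types, had values of 7.64, 7.98, 8.42, 8.08 and 8.36 in knockouts 5, 7, 9, 10 and 11, against 9.03, 9.12, 9.05 and 8.17 in controls 1 to 4. The highest knockout lay 0.61 log2 units under the lowest of controls 1 to 3, while control 4 lay within the range of the knockouts. The fall of 0.75 log2 units (SE 0.22) passed the test with a limma adjusted p of 0.0304. Without control 4 the change was -0.97 (SE 0.16, 1.96-fold lower), with a limma adjusted p of 0.00272. The call did not depend on control 4 but was lost without any one of knockouts 5, 7 and 10 or controls 1, 2 and 3, where the limma adjusted p lay between 0.058 and 0.0898.

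Zfpm2 (ENSMUSG00000022306_at), a zinc-finger cofactor of GATA factors found in corticothalamic neurons, had values of 7.62, 7.70, 7.78, 7.79 and 7.73 in knockouts 5, 7, 9, 10 and 11, against 8.001, 7.95, 8.21 and 7.82 in controls 1 to 4. The groups did not overlap, although the highest knockout and control 4 differed by only 0.03 log2 units. It fell by 0.27 log2 units (SE 0.08, limma adjusted p = 0.0364), and without control 4 the change was -0.33 (SE 0.08, limma adjusted p = 0.0127). The call was lost without any single embryo other than control 4, with limma adjusted p between 0.0505 and 0.0864. It was also lost, at 0.0525, once each array's median had been subtracted.

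Tle4 (ENSMUSG00000024642_at), a Groucho-type corepressor that binds partner factors and marks corticothalamic neurons, had values of 8.81, 8.38, 8.63, 8.61 and 8.54 in knockouts 5, 7, 9, 10 and 11, against 7.51, 7.41, 7.76 and 7.54 in controls 1 to 4. The lowest knockout lay 0.62 log2 units above the highest control, and both groups were tight, at 8.59 ± 0.16 (SD, n = 5) in the knockouts and 7.55 ± 0.15 (SD, n = 4) in the controls. The rise of 1.04 log2 units (SE 0.10, 95% interval 0.82 to 1.26) had a limma adjusted p of 0.000428. In size it ranked 75 among the changes of all 12188 genes. Without control 4 it was again 1.04 (SE 0.11, limma adjusted p = 0.000644).

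Nfia (ENSMUSG00000028565_at) and Nfib (ENSMUSG00000008575_at) encode nuclear factor I proteins, which act in cortical progenitors, in early neurons and later in glia. Nfia had values of 8.72, 9.08, 9.21, 9.51 and 9.28 in knockouts 5, 7, 9, 10 and 11, against 8.96, 9.09, 9.03 and 8.75 in controls 1 to 4. Knockout 5 and control 4 were the lowest embryos, and knockouts 9, 10 and 11 lay above every control. Its difference of 0.20 (SE 0.14, 95% interval -0.11 to 0.52) had a limma adjusted p of 0.34, and without control 4 it was 0.13 (limma adjusted p = 0.562). Nfib had values of 11.38, 11.74, 11.91, 11.78 and 11.96 in knockouts 5, 7, 9, 10 and 11, against 11.80, 11.97, 12.05 and 11.58 in controls 1 to 4. Here too knockout 5 and control 4 were lowest, and the groups overlapped. The difference of -0.09 (SE 0.13, 95% interval -0.39 to 0.20) had a limma adjusted p of 0.66, and without control 4 it was -0.18 (limma adjusted p = 0.33).

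Neurod2 (ENSMUSG00000038255_at) and Neurod6 (ENSMUSG00000037984_at) encode basic helix-loop-helix factors switched on in cortical excitatory neurons as they leave the cell cycle. Neurod2 had values of 9.59, 9.96, 10.20, 9.65 and 9.76 in knockouts 5, 7, 9, 10 and 11, against 10.52, 10.52, 10.63 and 9.42 in controls 1 to 4. Controls 1 to 3 lay above every knockout, and control 4 lay below every knockout. Over all 9 embryos the difference was -0.44 (SE 0.24), with a limma adjusted p of 0.215. Without control 4 it was -0.72 (SE 0.13, 1.65-fold lower), with a limma adjusted p of 0.00406.

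Neurod6 had values of 9.97, 10.76, 10.98, 10.28 and 10.59 in knockouts 5, 7, 9, 10 and 11, against 11.51, 11.65, 11.69 and 10.26 in controls 1 to 4. It followed Neurod2: controls 1 to 3 lay above every knockout, and knockout 5 alone lay below control 4. Over all 9 embryos the difference was -0.76 (SE 0.30), with a limma adjusted p of 0.0963. Without control 4 it was -1.10 (SE 0.20, 2.14-fold lower), with a limma adjusted p of 0.00384. Both genes were called only when control 4 was left out or given less weight.

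Of the 10 genes, the groups did not overlap at 1 higher gene (Tle4) and 2 lower genes (Fezf2 and Zfpm2), against 9.99% higher and 14.2% lower over all genes. Without control 4 they did not overlap at 1 higher and 5 lower genes, Sox5, Neurod2 and Neurod6 being added, against 14.2% higher and 18.9% lower over all genes. In that fit 5 of the 10 were called, Tle4 higher and Sox5, Zfpm2, Neurod2 and Neurod6 lower, against 26.8% of all genes (12.2% higher and 14.6% lower).

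**Figure D3:**
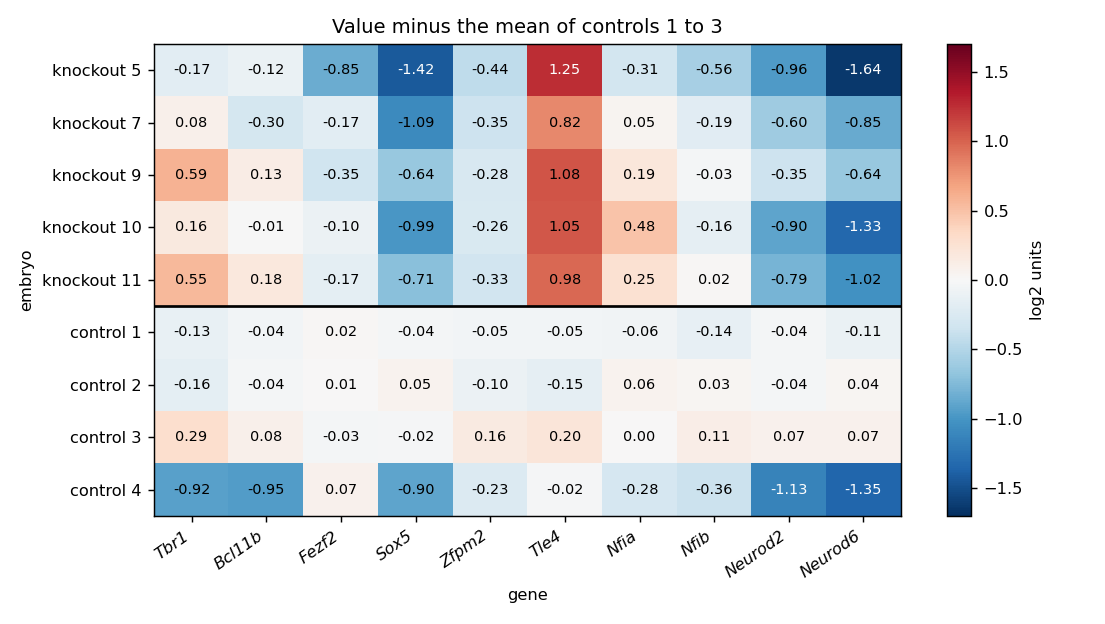
Value of each gene (columns) in each embryo (rows) minus the mean of controls 1 to 3, in log2 units, with knockouts above the line and controls under it. All 5 knockouts are above that mean at Tle4 (0.82 to 1.25) and below it at Sox5 (-1.42 to -0.64) and Neurod6 (-1.64 to -0.64). Control 4 is close to or within the knockouts at Sox5, Zfpm2, Nfia, Nfib, Neurod2 and Neurod6. It is far below them at Tbr1 and Bcl11b and far below them at Tle4. At Fezf2 it is at 0.07, above the knockouts (-0.85 to -0.10).

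Because every knockout was labelled male, the genes were also compared with the controls labelled male, in a limma fit with 3 groups: the 5 knockouts, controls 3 and 4, and controls 1 and 2. Here 1 of the 10 genes was called, against 10.5% of all genes (4.82% higher and 5.72% lower). It was Tle4, higher by 0.94 log2 units (SE 0.12, limma adjusted p = 0.00772). The differences of -0.51 (SE 0.25) at Sox5 and -0.29 (SE 0.11) at Zfpm2 did not pass, with limma adjusted p of 0.202 and 0.102. The remaining 7 genes had limma adjusted p from 0.229 to 0.854. Control 4 is 1 of the 2 control males. Without it, control 3 was the lone control male, assumed to vary like the other groups, and Tle4 was higher by 0.84 (SE 0.15, limma adjusted p = 0.0515). With control 3 counted as female, the comparison rested on control 4 alone and carried its low values at 8 of the 10 genes. Tle4, where control 4 lay among the other controls, was higher by 1.05 in that fit, whereas Sox5 and Zfpm2 were at -0.076 and -0.099. Control 3 is labelled male, and the sex labels were not checked, as sex-linked genes could not be paired with identifiers.

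**Figure D4:**
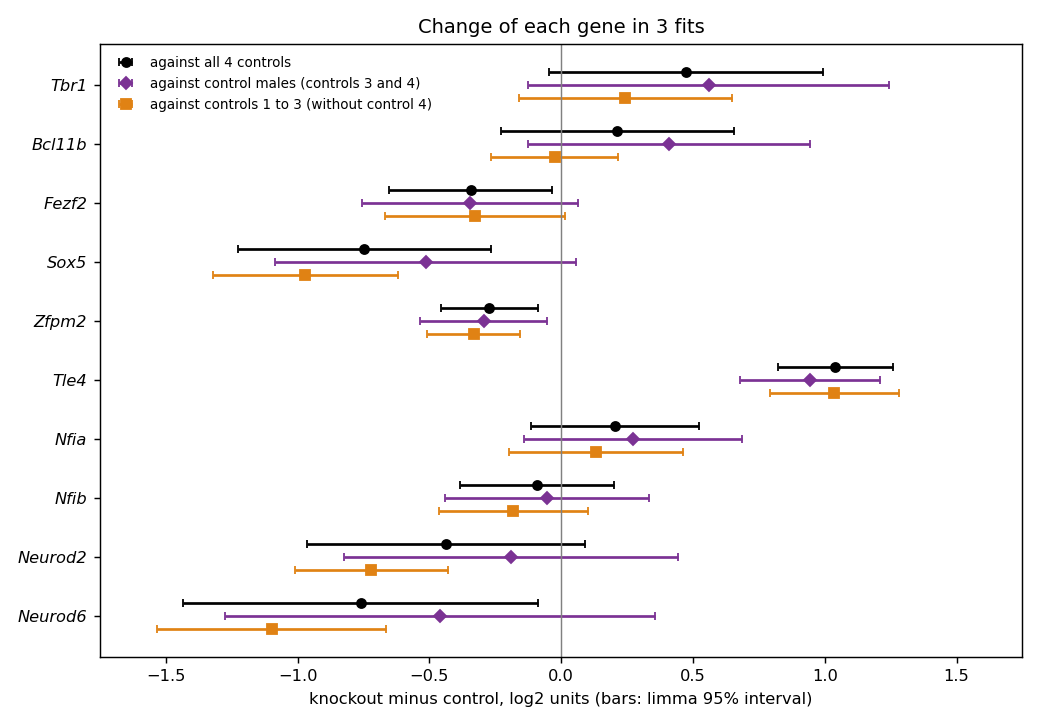
Change of each gene (knockout minus control, log2 units, horizontal axis) with its limma 95% interval, against all 4 controls (black circles), against the 2 control males in the fit of 3 groups (purple diamonds) and without control 4 (orange squares). Tle4 stays between 0.94 and 1.04, Sox5, Neurod2 and Neurod6 move further below 0 without control 4, whereas Tbr1 moves toward 0 and Bcl11b past it.

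The 2 pairs of paralogs, genes of 1 family, were also compared within each array, where a shift common to both cancels. The pairs were taken up after the values were seen, so they are described with no test. Nfia minus Nfib was -2.66, -2.66, -2.70, -2.27 and -2.68 log2 units in knockouts 5, 7, 9, 10 and 11, against -2.84, -2.88, -3.01 and -2.83 in controls 1 to 4. Every knockout lay above every control, control 4 included, and the means differed by 0.30 log2 units. Neurod2 minus Neurod6 was -0.38, -0.81, -0.77, -0.63 and -0.83 in knockouts 5, 7, 9, 10 and 11, against -0.99, -1.14, -1.06 and -0.84 in controls 1 to 4. Again the groups did not overlap, although knockout 11 and control 4 differed by little, and the means differed by 0.32 log2 units. Among all pairs of the 12188 genes, the within-array differences did not overlap between the groups at 23.8%. Among the 45 pairs of the 10 genes they did not overlap at 20, and among the 36 pairs without Tle4 at 13. Separation was thus not particular to the paralogs, and pairs that share a gene are not independent. A difference within an array concerns unequal change of the pair and does not tell which gene changed.

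**Figure D5:**
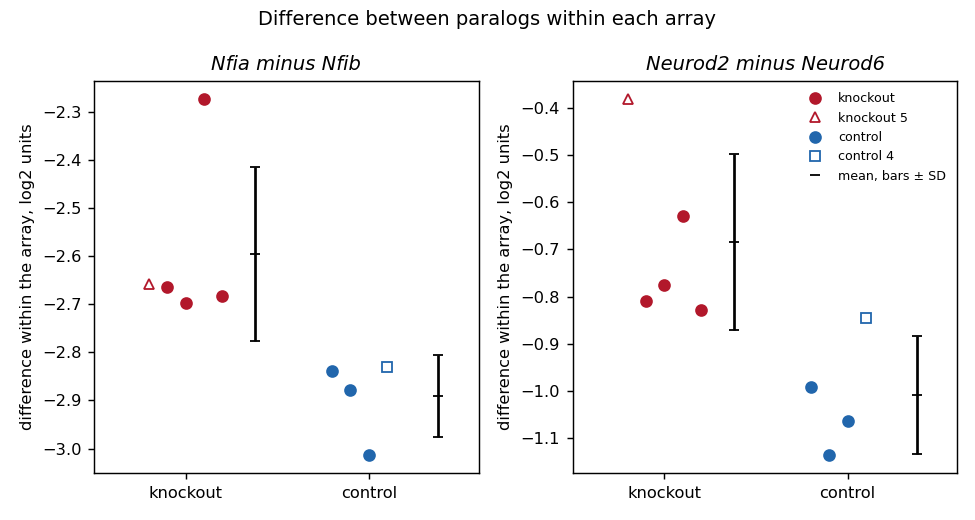
Difference between paralogs within each array (log2 units, vertical axis) in knockout and control embryos, for Nfia minus Nfib (left) and Neurod2 minus Neurod6 (right). Points are embryos, knockout 5 is an open triangle and control 4 an open square, and bars show the mean ± SD. In both panels all 5 knockouts lie above all 4 controls.

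The likeness of the genes was described by the root mean square difference, over the 9 embryos, between 2 genes' values after each gene's own mean was subtracted. For Neurod6 the nearest of the other 9 genes was Sox5, at 0.214 log2 units, and among all genes of the table Sox5 ranked 8 in nearness to it. For Sox5 it was Neurod6 (rank 18), for Tbr1 it was Bcl11b, at 0.210 (rank 24), and for Neurod2 it was Neurod6, at 0.216 (rank 57). For the other 6 genes many genes outside the list were nearer: the nearest list member ranked 310 for Bcl11b, 632 for Nfib, 828 for Nfia, 1761 for Fezf2 and 2316 for Zfpm2. For Tle4 it was Tbr1, at 0.470, with a rank of 2462. Control 4 entered all these distances. It lay at least 0.8 log2 units under the mean of controls 1 to 3 at Tbr1, Bcl11b, Sox5, Neurod2 and Neurod6, against 1.85% of all genes. Control 4 lay at least 0.8 above that mean at 4.18% of all genes. The cut of 0.8 was not part of the plan, and the next largest gap below, at Nfib, was 0.36. Likeness without control 4 was not computed. Averaged over the 10 genes, the centred values were lowest in control 4 (-0.42) and knockout 5 (-0.33) and highest in control 3 (0.29). The 5 other genes nearest to this average profile, at 0.0672 to 0.085, are listed by identifier alone and none was called between the groups. The nearest is ENSMUSG00000029361.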

How the data were processed

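The deposited table holds log2 values made by the authors, 1 per gene and array, for 9 arrays. They were made with the affy package, per the submitters' processing notes. How background, normalization and summarization were handled, and on which array type, is not given in the sources used. The log2 scale was inferred from the deposited range of 2.72 to 14.1, with array medians from 7.61 to 7.75. Precision is limited by the number of embryos, as arrays have no read depth, and dim genes tend to show changes shrunk toward 0. No detection call per gene was used.

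The table lists Ensembl identifiers. The symbols of the 10 genes came with the list of identifiers that defines them, not from the table. The RefSeq table (GRCm38.p6) holds 0 Ensembl identifiers, so 17 planned gene lists (247 entries), among them paralogs, cell type markers, sex-linked genes and Dicer1, were not used. The genes and lists were chosen with earlier results of these data known.

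limma (version 3.58.1, R 4.3.3; lmFit and eBayes) was fitted to all 12188 genes without covariates, two-sided, with Benjamini-Hochberg adjustment over all genes. All 10 genes are named. The fit was tried on simulated data with independent noise of the same spread in every array, which does not cover an outlying embryo such as control 4. Litters are not assigned, so embryos were treated as independent, which could not be checked. The p-values weigh a group difference against the spread between embryos and do not allow for litters. Alternatives were quantile normalization, median subtraction, array weights, a robust variance with an intensity trend, omission of the dimmest 50% of genes, males alone, control 3 counted as female and each array left out. Within-array differences of paralogs, added after the values were seen, were described without a test. Figures were drawn with matplotlib 3.10.9.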

Additional observations from a re-analysis of the deposited data

Results flagged for a closer look

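At 4 of the 10 genes control 4 stood so far from controls 1 to 3 that its gap, as a share of the range of the control group, exceeded Dixon's 95% limit for 4 samples. The test was made 20 times, for 10 genes in 2 groups, and chance exceeds the limit in about 1 in 20 groups. The 4 results are not independent, since they concern the same embryo.

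Bcl11b was 9.17 log2 units in control 4, against 10.08 to 10.20 in the other controls, a gap of 0.880 of the range. Sox5 was 8.17 there, against 9.03 to 9.12, a gap of 0.905. Neurod2 was 9.42, against 10.52 to 10.63, a gap of 0.908. Neurod6 was 10.26, against 11.51 to 11.69, a gap of 0.871. In all 4 cases control 4 was the low one. Over all genes control 4 passed the same limit at 8.28%, and on the low side at 3.21%. At Tbr1, where controls 1 to 3 were more spread, control 4 was 0.92 log2 units under their mean with a gap of 0.628 of the range, under the limit. No knockout passed the limit of 0.71 for 5 samples at any of the 10 genes. Knockout 5 came closest at Fezf2, with 0.670.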

How the results depend on the processing

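Tle4 was called higher in all 18 alternative fits of its change, at 0.94 to 1.11 log2 units, and in the contrast with control males it lost its call without control 4 (0.84, limma adjusted p = 0.0515). The number of the 10 genes called against all controls was 3 (24.6% of all genes), and it was 7 with array weights (37.4% of all genes), 5 with control 4 and knockout 7 both left out (27.3%) and 1 with males alone (2.66%). As each embryo was left out, it ranged from 1, beside 16.2% to 23.9% of all genes, to 5 without control 4, beside 26.8%. Array weights, estimated from the same values, gave control 4 the lowest weight (0.243) and knockout 5 the next (0.366). With them Tbr1 (0.47, limma adjusted p = 0.031) and Fezf2 (-0.26, limma adjusted p = 0.0378) were called. So were Neurod2 and Neurod6, besides Tle4, Sox5 and Zfpm2. Against control males the number was 1, and 3 with control 3 counted as female, a fit that rests on control 4 as the lone control male, and it ranged from 0 to 3 as each embryo was left out. The 1 call against control males, Tle4, stood beside 10.5% of all genes, and beside 2.08% to 11.4% as each knockout was left out. With control 3 counted as female the 3 genes were Tle4, Tbr1 and Bcl11b, higher by 1.05, 1.16 and 0.92 log2 units. Without control 3 the number again rested on control 4 alone, and the 0, without control 4, rested on control 3 alone. Against all controls, signs turned at Bcl11b and Nfib. Bcl11b ranged from -0.025 (without control 4) to 0.32 as each embryo was left out, and Nfib from -0.18 to 0.0020 (without knockout 5). Nfib was 0.012 after quantile normalization. Against control males, signs turned at 5 genes. Without control 4, Tbr1 was -0.045 and Bcl11b -0.11. Without control 3, or with it counted as female, Nfib was 0.18, Neurod2 0.41 and Neurod6 0.25. Nfib was also 0.048 after quantile normalization and 0.039 without knockout 5. Of 180 alternative values of the 10 genes, 143 kept direction and side of the threshold, 21 lost a call, 10 gained one and 6 changed sign; the causes were not tested. As each embryo was left out, the within-array difference was 0.22 to 0.32 for Nfia minus Nfib and 0.25 to 0.38 for Neurod2 minus Neurod6. Over all genes 2997 were called against all controls, 4562 with array weights, 324 with males alone and 1976 without control 1. Against control males 1285 were called, 2545 with control 3 counted as female, and 76 to 2297 as each embryo was left out. No paired analysis was possible because litters are not assigned to embryos and the sources used name no pairs.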

Other observations

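Among the knockouts, knockout 5 was the lowest at 8 of the 10 genes and the highest at Tle4, whereas it was the lowest knockout at 34.4% of all genes. It lay 0.68 log2 units under the mean of the other knockouts at Neurod6, 0.65 under it at Fezf2, 0.57 at Sox5, 0.55 at Nfia and 0.52 at Tbr1, and 0.27 above it at Tle4. Its root mean square distance from the other knockouts was 0.469 over the 10 genes and 0.274 over all genes. Its array median, 7.61, was the lowest of the 9, and the part of this in the result was not tested. Knockout 9 was the highest knockout at 4 of the 10 genes (Tbr1, Sox5, Neurod2 and Neurod6), against 19.9% of all genes. Control 3 was the highest control at 7 of the 10, against 26.7% of all genes. At Fezf2 the controls spanned 10.85 to 10.94, while the knockouts spanned 10.03 to 10.78.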
